A study of Mus musculus with 9 samples.

Results

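Cadherin and desmosome genes, 10 in number, were followed across 9 mouse liver tumors: the cadherins Cdh1, Cdh2 and Cdh11, the desmosome genes Pkp2, Pkp3, Dsp, Dsg2, Dsc2 and Jup, and the cadherin-binding catenin Ctnnd1. They were chosen by symbol, with earlier results of these data known, and all 10 were found among the 24421 gene symbols of the series. All 10 also passed the filter on low values, along with 14215 genes in all. All mice were C57BL/6 and 11 weeks old. The groups, of 3 tumors each, were S7HP+Snail (tumors 13, 14 and 15), S7HP (tumors 9, 11 and 12) and LHP (tumors 2, 3 and 6). The column headers tie LHP to a Luc (luciferase) construct, S7HP to Smad7, an inhibitor of TGF-β receptor signaling, and the third group to Smad7 with Snail, a zinc finger repressor of epithelial genes encoded by Snai1. The letters HP that the 3 names share, and thus what all tumors carry in common, are not spelled out in the labels. Whether each tumor is from its own animal is not stated. The p-values treat the tumors as independent, which they would not be if some shared an animal.

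Classical cadherins hold neighbouring cells together at adherens junctions. Their outer domains bind the same cadherin on the next cell, and their inner tails bind p120-catenin and β-catenin, which reach the actin skeleton through α-catenin. Desmosomes are built on the same plan with other parts: the desmosomal cadherins desmoglein and desmocollin bind plakoglobin and plakophilins, and desmoplakin ties this plaque to keratin filaments. Hepatocytes carry both E-cadherin and N-cadherin, and loss of E-cadherin and desmosomes with gain of mesenchymal cadherins is a textbook mark of epithelial-mesenchymal transition.

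Values are log2(normalized count + 1), where the normalization forced the same distribution of values on every library. The libraries were made with QuantSeq, which reads about once per transcript near its 3′ end, so levels of different genes were compared without dividing by length. The unlogged totals lay between 19910396 and 19911234 and do not show the original depth of each library. In every tumor the liver gene Alb was high, between 12.98 and 17.32. Snai1 was at 8.53, 7.31 and 8.47 in S7HP+Snail tumors 13, 14 and 15, at 6.17 to 6.92 in S7HP and at 9.93 to 11.16 in LHP, and Smad7 averaged 7.36 in S7HP+Snail, 6.52 in S7HP and 10.07 in LHP. The groups named for these constructs were thus not the highest for either gene. A 3′ tag counts a construct only if it carries the mouse gene's 3′ end, so neither gene tests the group labels here.

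E-cadherin, Cdh1 (GRCm38 chromosome 8, 106603351 to 106670246, plus strand), rose in S7HP tumors. It was at 14.17, 10.54 and 11.28 in S7HP+Snail tumors 13, 14 and 15, at 14.26, 14.18 and 14.95 in S7HP tumors 9, 11 and 12, and at 11.96, 11.08 and 11.11 in LHP tumors 2, 3 and 6. The S7HP tumors all lay above the LHP tumors, while S7HP+Snail tumor 13 stood near the S7HP tumors and tumors 14 and 15 near the LHP tumors. S7HP exceeded LHP by 3.08 ± 0.77 (SE) on the log2 scale, an 8.48-fold difference (limma, Benjamini-Hochberg adjusted p = 0.0230). That call did not hold when LHP tumor 3, LHP tumor 6 or any of the S7HP tumors was left out (adjusted p up to 0.0775), with differences of 2.84 to 3.37 over the 16 alternatives. It held in the other 11 alternatives. Its adjusted p (limma, Benjamini-Hochberg) was 0.000519 with only the 6 libraries compared and 0.00101 without S7HP+Snail tumor 13. The SD of Cdh1 was 1.92 in S7HP+Snail, against 0.43 in S7HP and 0.50 in LHP. The difference of S7HP+Snail from S7HP was -2.47 ± 0.77 (SE), with no overlap of the groups, and did not pass (limma, Benjamini-Hochberg adjusted p = 0.130). Without S7HP+Snail tumor 13 it was -3.56 and passed (limma, Benjamini-Hochberg adjusted p = 0.00574). S7HP+Snail differed from LHP by 0.61 with a 95% interval, not adjusted for multiple tests, from -1.12 to 2.34, and by -0.47 without tumor 13.

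N-cadherin, Cdh2 (chromosome 18, 16588877 to 16809246, minus strand), did not pass in any comparison. Its log2 values were 8.62, 9.92 and 9.27 in S7HP+Snail tumors 13, 14 and 15, 10.45, 9.86 and 9.78 in S7HP tumors 9, 11 and 12, and 10.75, 10.16 and 10.31 in LHP tumors 2, 3 and 6. S7HP and LHP overlapped and differed by -0.38 ± 0.34 (SE; limma, Benjamini-Hochberg adjusted p = 0.472), and S7HP+Snail overlapped S7HP and differed from it by -0.76 ± 0.34 (adjusted p = 0.291). The S7HP+Snail tumors all lay below the LHP tumors, by 1.14 on average (log2 difference -1.14 ± 0.34, SE), which did not pass (limma, Benjamini-Hochberg adjusted p = 0.0776) but did without S7HP+Snail tumor 14 (-1.46, adjusted p = 0.0301).

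The balance of the 2 cadherins within a tumor followed Cdh1. Cdh1 exceeded Cdh2 by 5.54, 0.62 and 2.01 in S7HP+Snail tumors 13, 14 and 15, by 3.81, 4.33 and 5.18 in S7HP tumors 9, 11 and 12, and by 1.21, 0.91 and 0.80 in LHP tumors 2, 3 and 6 (log2 difference between the genes). Cdh1 was the higher of the pair in 9 of 9 tumors, by 46.7-fold in S7HP+Snail tumor 13 and 1.54-fold in tumor 14.

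Cadherin-11, Cdh11 (chromosome 8, 102632095 to 102785642, minus strand), a cadherin of mesenchymal cells such as fibroblasts, fell in S7HP tumors. It was at 6.32, 5.59 and 3.50 in S7HP+Snail tumors 13, 14 and 15, at 4.44, 3.29 and 4.50 in S7HP tumors 9, 11 and 12, and at 6.10, 7.02 and 6.57 in LHP tumors 2, 3 and 6. The S7HP tumors all lay below the LHP tumors, and the S7HP+Snail tumors overlapped both other groups. S7HP differed from LHP by -2.49 ± 0.72 (SE; limma, Benjamini-Hochberg adjusted p = 0.0396), a call lost with no filter on low values and on leaving out any single LHP or S7HP tumor (up to 0.125). S7HP+Snail differed from S7HP by 1.06 ± 0.72 and from LHP by -1.43 ± 0.72 (SE), neither passing (adjusted p = 0.486 and 0.253). These are low values: in S7HP tumor 11 Cdh11 stood at the fifth distinct value above 0, against the 107th in LHP tumor 3, and successive values would be successive read counts if no count was skipped.

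Stellate cell and fibroblast markers lay lower alongside Cdh11. Of the 14 markers, 6 fell and 0 rose in S7HP relative to LHP, where 9.54% of all genes fell and 9.47% rose. Their summed log2 level ran from 14.08 to 14.73 in S7HP+Snail, from 13.10 to 13.74 in S7HP and from 15.74 to 16.17 in LHP. None of the 14 was at 0 in all tumors of a group. In S7HP relative to LHP, 13 of the 14 differences lay below 0. The exception, Reln, was at 8.48 to 10.17 in S7HP and 7.03 to 7.61 in LHP, and did not pass (limma, Benjamini-Hochberg adjusted p = 0.0853). Fewer cells of a type and less RNA per cell cannot be told apart in bulk tumors, and the part of these cells in the Cdh11 values was not tested. In S7HP against LHP, hepatocyte markers were higher alongside Cdh1, with 6 of 15 risen and 0 fallen (9.47% and 9.54% of all genes). Their summed log2 levels were 17.25 to 18.12 in S7HP+Snail, 17.68 to 19.17 in S7HP and 15.79 to 16.66 in LHP. The S7HP+Snail sums thus all lay above those of LHP, while Cdh1 in tumors 14 and 15 stood near the LHP tumors. The part of hepatocytes in the Cdh1 values was likewise not tested.

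**Figure D1:**
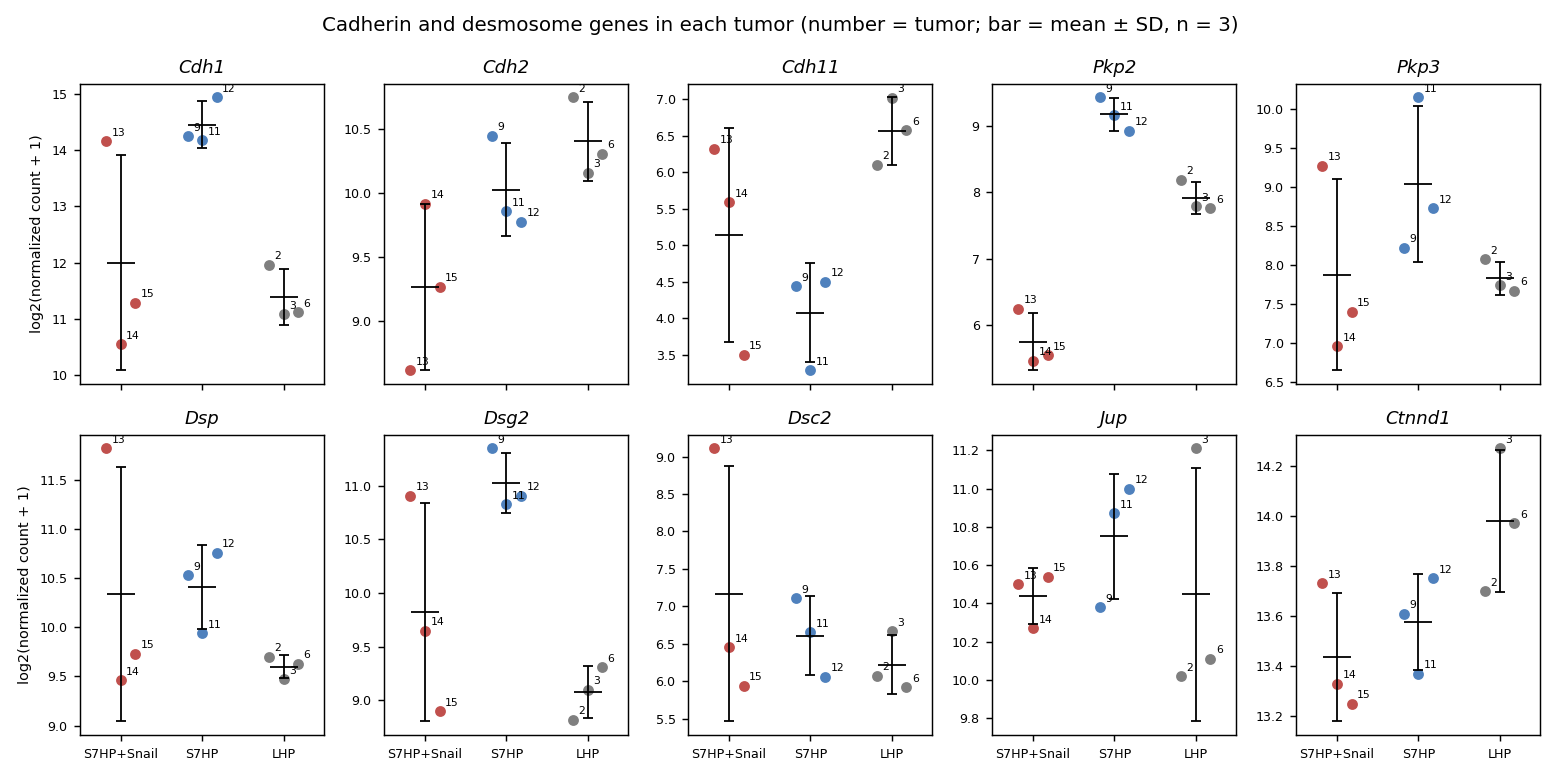
Log2(normalized count + 1) of each of the 10 genes (1 panel each, with its own y axis) in every tumor, by group on the x axis. Points carry the tumor number, and bars show the mean ± SD (n = 3); Pkp2 alone has all 3 S7HP+Snail tumors (5.47 to 6.25) below every other tumor, while Cdh1, Dsp, Dsg2 and Dsc2 are high in S7HP+Snail tumor 13.

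Plakophilin 2, Pkp2 (chromosome 16, 16213318 to 16272712, plus strand), an armadillo-repeat protein that binds desmoplakin in the plaque, was the member that changed in every comparison. It was at 6.25, 5.47 and 5.55 in S7HP+Snail tumors 13, 14 and 15, at 9.43, 9.16 and 8.93 in S7HP tumors 9, 11 and 12, and at 8.19, 7.79 and 7.76 in LHP tumors 2, 3 and 6. No pair of groups overlapped, and the order was the same throughout, with S7HP highest and S7HP+Snail lowest. It rose by 1.26 ± 0.30 (SE) in S7HP relative to LHP (limma, Benjamini-Hochberg adjusted p = 0.0192), but not when LHP tumor 3 or 6, or S7HP tumor 9 or 11, was left out (adjusted p up to 0.0722). In S7HP+Snail it was lower than in S7HP by 10.7-fold (log2 difference -3.41 ± 0.30, SE; adjusted p = 0.00277) and lower than in LHP by 4.45-fold (log2 difference -2.15 ± 0.30, SE; adjusted p = 0.00505). Both lower calls held in all 16 alternatives, where the highest adjusted p (limma, Benjamini-Hochberg) was 0.0231 against S7HP and 0.0247 against LHP.

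Plakophilin 3, Pkp3 (chromosome 7, 141078218 to 141090510, plus strand), a related plaque protein, did not pass in any comparison. It was at 9.27, 6.96 and 7.40 in S7HP+Snail tumors 13, 14 and 15, at 8.22, 10.15 and 8.73 in S7HP tumors 9, 11 and 12, and at 8.07, 7.74 and 7.67 in LHP tumors 2, 3 and 6. The S7HP tumors lay above the LHP tumors, by 1.21 ± 0.63 (SE; limma, Benjamini-Hochberg adjusted p = 0.204), and S7HP+Snail spread over both. Relative to Pkp3, Pkp2 was lower in 3 of 3 S7HP+Snail tumors, with differences of Pkp2 minus Pkp3 of -3.01, -1.49 and -1.84, against differences between -1.0 and 1.21 in S7HP and between 0.06 and 0.12 in LHP (log2 differences between the genes within a tumor).

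Desmoplakin, Dsp (chromosome 13, 38151294 to 38198577, plus strand), the link to keratin, was at 11.82, 9.46 and 9.73 in S7HP+Snail tumors 13, 14 and 15, at 10.53, 9.94 and 10.76 in S7HP tumors 9, 11 and 12, and at 9.70, 9.47 and 9.63 in LHP tumors 2, 3 and 6. S7HP lay above LHP without overlap, by 0.81 ± 0.54 (SE), which did not pass (limma, Benjamini-Hochberg adjusted p = 0.316). S7HP+Snail tumor 13 held the highest Dsp value of the 9 tumors and tumor 14 the lowest, and the group differed from S7HP by -0.07, with a 95% interval from -1.28 to 1.13. Within a tumor, the log2 difference of Pkp2 minus Dsp was -5.57, -3.98 and -4.18 in S7HP+Snail tumors 13, 14 and 15, against -1.83 to -0.79 in S7HP and -1.87 to -1.51 in LHP.

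Plakoglobin, Jup (chromosome 11, 100368958 to 100397763, minus strand), a catenin that serves both junction types, was at 10.50, 10.27 and 10.54 in S7HP+Snail tumors 13, 14 and 15, at 10.38, 10.87 and 11.00 in S7HP tumors 9, 11 and 12, and at 10.02, 11.21 and 10.11 in LHP tumors 2, 3 and 6. The 3 groups overlapped. The differences were -0.31 for S7HP+Snail against S7HP (95% interval -1.04 to 0.41), 0.31 for S7HP against LHP (-0.42 to 1.03) and -0.01 for S7HP+Snail against LHP (-0.73 to 0.72).

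Promoters of these plaque genes were read for CAGGTG and its reverse complement CACCTG on both strands, the form of the E-box to which Snail proteins bind. Of the 10 genes, 3 matched RefSeq promoter windows (GRCm38.p6, 250 bases before to 50 after the start): Dsp, Jup and Ctnnd1, the last with 2 starts. The motif was in 1 of these 4 windows, that of Dsp, and in 20.2% of 32851 windows of the same length genome-wide. Both plaque promoters are shown from 120 bases before to 30 after the start, Dsp at chr13:38151174-38151323 (plus strand) and Jup at chr11:100397761-100397910 (minus strand), to set a window with the motif beside one without it. Capitals mark the motif, which begins at base 4 of the Dsp transcript.
Dsp: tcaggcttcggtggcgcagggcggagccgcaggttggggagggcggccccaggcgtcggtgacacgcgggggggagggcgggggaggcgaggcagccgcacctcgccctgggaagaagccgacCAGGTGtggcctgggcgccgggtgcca
Jup: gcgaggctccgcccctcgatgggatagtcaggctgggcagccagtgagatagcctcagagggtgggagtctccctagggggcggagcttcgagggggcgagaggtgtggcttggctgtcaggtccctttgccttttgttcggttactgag
Neither gene passed between S7HP+Snail and S7HP, and a motif match is a description of the letters, not of binding.

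Desmoglein 2, Dsg2 (chromosome 18, 20558074 to 20604521, plus strand), a desmosomal cadherin of simple epithelia, rose in S7HP tumors. It was at 10.91, 9.65 and 8.90 in S7HP+Snail tumors 13, 14 and 15, at 11.35, 10.83 and 10.91 in S7HP tumors 9, 11 and 12, and at 8.82, 9.10 and 9.31 in LHP tumors 2, 3 and 6. S7HP stood clear of LHP, by 1.95 ± 0.44 (SE), a 3.87-fold difference (limma, Benjamini-Hochberg adjusted p = 0.0141), with the call lost without LHP tumor 2 or S7HP tumor 9 (adjusted p up to 0.0527). It held in the other 14 of 16 alternatives (limma, Benjamini-Hochberg adjusted p as low as 0.00116). S7HP+Snail differed from S7HP by -1.21 ± 0.44 (SE), which did not pass (adjusted p = 0.184), and by -1.76 without S7HP+Snail tumor 13, which did (limma, Benjamini-Hochberg adjusted p = 0.0239). The annotation places an antisense transcript, Gm16090, over the 3′ end of Dsg2, and whether strand was used in counting is not given in the sources used here, so reads of the pair cannot be told apart.

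Desmocollin 2, Dsc2 (chromosome 18, 20030633 to 20059554, minus strand), the partner desmosomal cadherin, was low except in 1 tumor. It was at 9.11, 6.45 and 5.94 in S7HP+Snail tumors 13, 14 and 15, at 7.11, 6.65 and 6.06 in S7HP tumors 9, 11 and 12, and at 6.07, 6.67 and 5.92 in LHP tumors 2, 3 and 6. The groups overlapped and no difference passed (limma, Benjamini-Hochberg adjusted p = 0.735 for S7HP+Snail against S7HP, 0.746 for S7HP against LHP and 0.454 for S7HP+Snail against LHP). Without S7HP+Snail tumor 13 the difference from S7HP was -0.41 in place of 0.56, and that from LHP was -0.03 in place of 0.95.

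p120-catenin, Ctnnd1 (chromosome 2, 84600071 to 84650765, minus strand), which keeps classical cadherins at the membrane, was at 13.73, 13.33 and 13.25 in S7HP+Snail tumors 13, 14 and 15, at 13.61, 13.37 and 13.75 in S7HP tumors 9, 11 and 12, and at 13.70, 14.27 and 13.97 in LHP tumors 2, 3 and 6. Its range over all tumors was thus the narrowest of the 10 genes, and no difference passed (limma, Benjamini-Hochberg adjusted p = 0.185 to 0.806). Set against it, Cdh1 differed by 0.43, -2.79 and -1.98 in S7HP+Snail tumors 13, 14 and 15, by 0.65 to 1.21 in S7HP and by -3.20 to -1.74 in LHP (log2 difference of Cdh1 minus Ctnnd1 within a tumor).

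Counted over the members, 3 of 10 rose and 1 fell in S7HP relative to LHP, where 9.47% of all genes tested rose and 9.54% fell (19.0% in all). The groups did not overlap for 6 members, 5 higher and 1 lower, as for 42.1% of all genes (20.9% higher, 21.3% lower). In S7HP+Snail relative to S7HP, 0 rose and 1 fell (1.01% and 1.29% of all genes, 2.30% in all). At an unadjusted p under 0.05 (limma), 3 were lower and 0 higher. The share of all genes at that threshold was not computed, here or for the lists below, so such counts have no background. The groups did not overlap for 2 members, both lower, as for 20.5% of all genes (9.53% higher, 11.0% lower). In S7HP+Snail relative to LHP, 0 rose and 1 fell (3.35% and 3.87% of all genes, 7.22% in all). Again 3 were lower and 0 higher at an unadjusted p under 0.05 (limma), with no such share. The groups did not overlap for 2 members, both lower, as for 30.5% of all genes (14.7% higher, 15.8% lower). The median log2 difference of the 10 members was 0.60 for S7HP against LHP, -0.53 for S7HP+Snail against S7HP and 0.02 for S7HP+Snail against LHP, against 0.02, -0.02 and 0.00 over all genes. The groups share tumors between comparisons, so these counts are not independent of each other. The members and lists were chosen with earlier results of these data known, so the shares of all genes beside their counts are no test. The count of 4 members in the first comparison was 0 without S7HP tumor 9, 1 without LHP tumor 3 or 6 or S7HP tumor 11, and 2 without LHP tumor 2 or S7HP tumor 12. The count of 1 in the second was 3 without S7HP+Snail tumor 13, and that in the third was 2 without S7HP+Snail tumor 14.

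**Figure D2:**
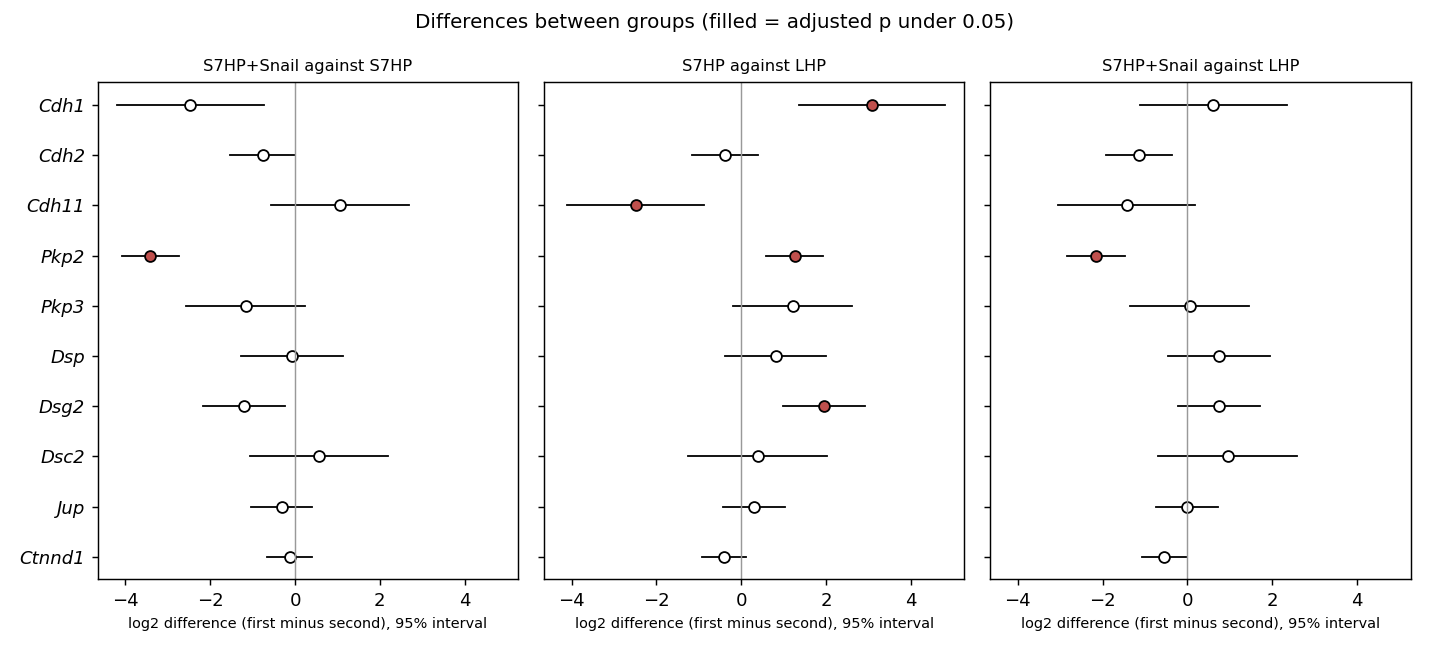
Log2 difference of each gene between groups (x axis, first group minus second) with its 95% interval from limma, not adjusted for multiple tests, in 1 panel per comparison. Filled points passed at a Benjamini-Hochberg adjusted p under 0.05: Pkp2 in all 3 panels, and Cdh1, Cdh11 and Dsg2 for S7HP against LHP.

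The 3 S7HP+Snail tumors did not share 1 junction profile. Tumor 13 had the highest Dsp and Dsc2 of the 9 tumors and the lowest Cdh2, and stood above the LHP mean by 2.78 for Cdh1, 1.83 for Dsg2, 1.44 for Pkp3, 2.23 for Dsp and 2.89 for Dsc2 (log2 differences). Tumor 14 had the lowest Cdh1, Pkp2, Pkp3 and Dsp of the 9 tumors. Pkp2 was below the LHP mean in all 3, with log2 differences of -1.66, -2.44 and -2.36 in tumors 13, 14 and 15. Epithelial markers outside the members, chosen after their values were seen, also differed among these tumors. The adhesion molecule Epcam was at 12.96, 4.20 and 8.19 and keratin 19, Krt19, at 12.53, 4.35 and 11.29 in tumors 13, 14 and 15, against 7.72 to 9.09 and 10.78 to 11.75 in S7HP and 5.44 to 7.29 and 8.27 to 9.76 in LHP. Krt19 set tumor 14 apart from tumors 13 and 15, whereas Cdh1 set tumor 13 apart from tumors 14 and 15. The summed log2 level of the 10 biliary markers ran from 15.20 to 18.50 in S7HP+Snail, from 16.44 to 17.55 in S7HP and from 16.60 to 17.50 in LHP. The part of such cells in the members' values was not tested.

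**Figure D3:**
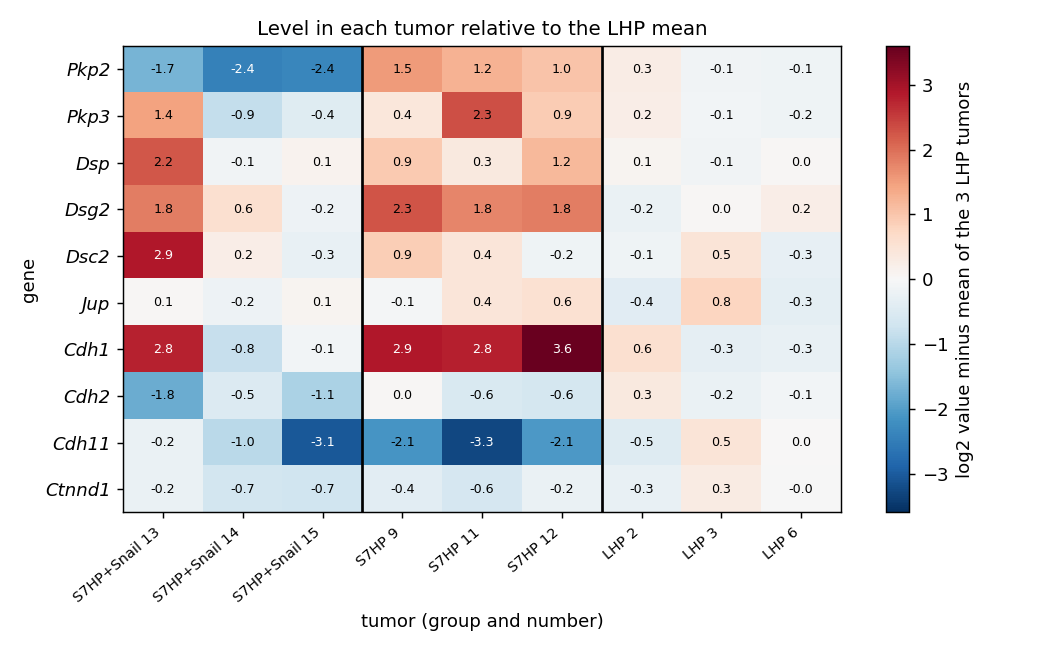
Log2 value of each gene (rows) in each tumor (columns, grouped) minus the mean of the 3 LHP tumors, printed in the cells and shown as colour, red above and blue below that mean. S7HP+Snail tumor 13 is red for Cdh1, Dsp, Dsg2, Dsc2 and Pkp3 and blue for Pkp2 (-1.66).

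The make-up of the cadherin family shifted with Cdh1. Of the summed unlogged values of 23 cadherin genes, Cdh1 made up 70.1%, 37.8% and 49.0% in S7HP+Snail tumors 13, 14 and 15, 75.2%, 76.0% and 76.1% in S7HP tumors 9, 11 and 12, and 49.9%, 41.7% and 45.1% in LHP tumors 2, 3 and 6. Cdh2 made up 1.5% to 24.6% in S7HP+Snail, 2.10% to 5.36% in S7HP and 21.5% to 25.9% in LHP. The second gene in every S7HP tumor was Cdh17, the liver-intestine cadherin, at 17.4% to 20.5%, against 1.87% to 14.6% in LHP, and it held 24.9%, 4.27% and 26.4% in S7HP+Snail tumors 13, 14 and 15. Quantile normalization keeps the order of genes in a library but changes their spacing, so these shares are of normalized values.

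Among the plakophilins, Pkp2 made up 2.53%, 4.23% and 1.84% in S7HP+Snail tumors 13, 14 and 15, against 16.7% to 30.2% in S7HP and 15.4% to 17.3% in LHP. Pkp4, which sits at adherens junctions as well as desmosomes, was the largest part in 9 of 9 tumors, at 76.8% to 89.9% in S7HP+Snail, 49.8% to 64.1% in S7HP and 56.0% to 64.3% in LHP. Its own level did not pass in any comparison (limma, Benjamini-Hochberg adjusted p = 0.922 for S7HP+Snail against S7HP, 0.177 for S7HP against LHP and 0.182 for S7HP+Snail against LHP).

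**Figure D4:**
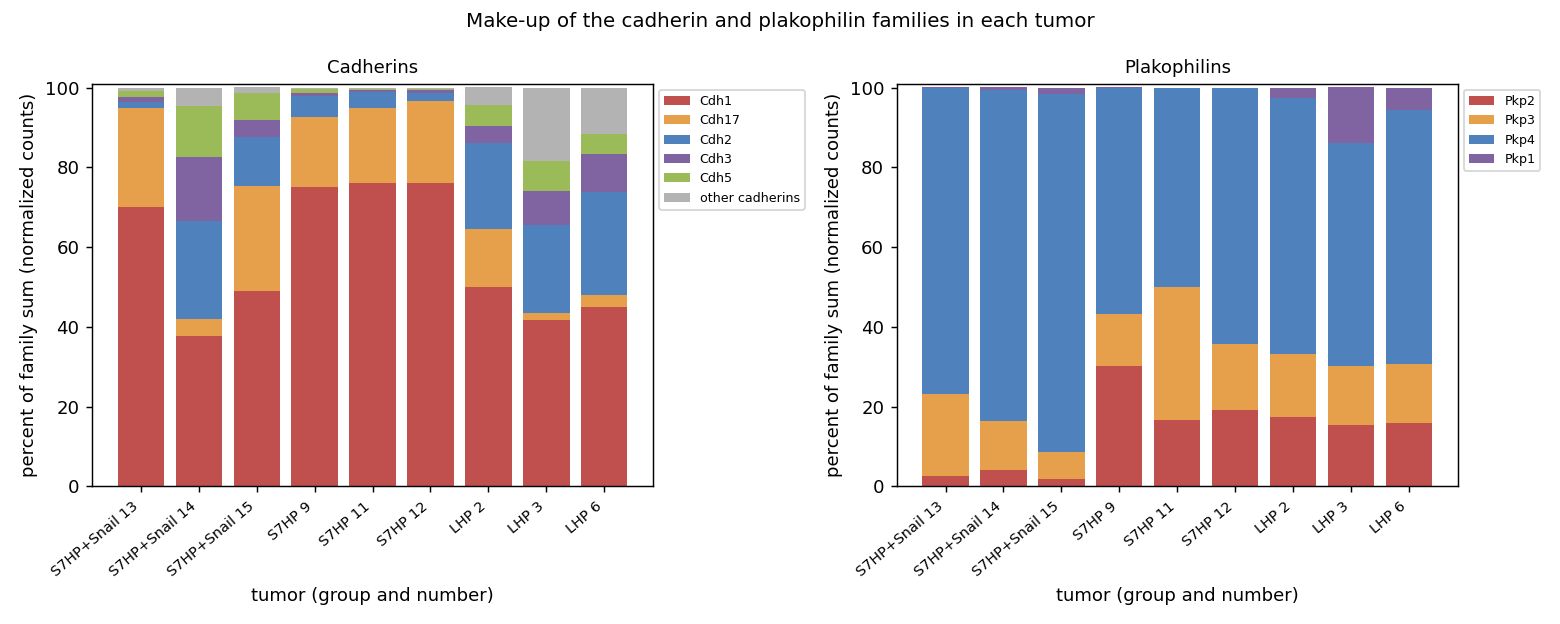
Share of each gene in the summed unlogged values of the cadherin family (left, 23 genes) and the plakophilin family (right, 4 genes), 1 bar per tumor, in percent. Cdh1 takes 75.2% to 76.1% of the cadherin bar in S7HP tumors, and Pkp2 takes 1.84% to 4.23% of the plakophilin bar in S7HP+Snail tumors.

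Of 12 other desmosome genes, 4 passed the filter, and Dsg1a, Dsg1b and Dsg4 were listed at 0 in 9 of 9 tumors. Periplakin, Ppl, which like desmoplakin belongs to the plakins that bind keratin filaments, was highest in S7HP like Pkp2: it was at 6.68, 7.09 and 7.57 in S7HP+Snail tumors 13, 14 and 15, at 9.51, 8.76 and 9.51 in S7HP tumors 9, 11 and 12, and at 7.55, 6.11 and 6.19 in LHP tumors 2, 3 and 6. It rose by 2.64 ± 0.44 (SE) in S7HP relative to LHP (limma, Benjamini-Hochberg adjusted p = 0.00447) and was lower in S7HP+Snail than in S7HP (-2.15 ± 0.44, SE; adjusted p = 0.0390). The second call was lost in 9 of 16 alternatives: no filter, eBayes without trend and robust, and leaving out LHP tumor 3 or 6, each S7HP tumor, or S7HP+Snail tumor 13 or 14 (adjusted p up to 0.118). Plakophilin 1, Pkp1, a plakophilin of stratified epithelia, was at 0.42, 2.92 and 5.31 in S7HP+Snail, at 2.81, 0 and 2.69 in S7HP and at 5.44, 7.65 and 6.28 in LHP tumors. It fell in S7HP relative to LHP (limma, Benjamini-Hochberg adjusted p = 0.0333), a call lost on leaving out any single tumor of either group (adjusted p up to 0.119). Pkp1 passed the filter on low values only with the LHP tumors, all at 4 or more, counted in. Its call is thus no support for a difference from LHP.

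Of 20 other cadherins, 8 passed the filter. In S7HP relative to LHP 2 of the 8 rose and 3 fell, where 9.47% of all genes rose and 9.54% fell. Cdh17 was at 12.67, 7.40 and 10.39 in S7HP+Snail tumors 13, 14 and 15, at 12.14, 12.18 and 13.06 in S7HP tumors 9, 11 and 12, and at 10.19, 6.61 and 7.18 in LHP tumors 2, 3 and 6. Its rise of 4.47 ± 1.24 (SE) in S7HP relative to LHP passed (limma, Benjamini-Hochberg adjusted p = 0.0339), but not under eBayes without trend and robust, nor on leaving out LHP tumor 3, LHP tumor 6 or any S7HP tumor (up to 0.118). The others that passed were low in at least 1 group. Cdh6, known as K-cadherin of the kidney, averaged 1.03 in S7HP+Snail, 4.55 in S7HP and 7.49 in LHP, and fell relative to LHP in both (limma, Benjamini-Hochberg adjusted p = 0.00345 for S7HP+Snail and 0.0364 for S7HP). The S7HP call was lost with a filter at a log2 value of 6, on leaving out any LHP tumor, and on leaving out S7HP tumor 9 or 11 (adjusted p up to 0.119). T-cadherin, Cdh13, which has no inner tail, averaged 2.77 in S7HP and 6.34 in LHP (adjusted p = 0.00707). Cdh10 was listed at 0 in 3 of 3 S7HP tumors and was at 4.11 to 7.89 in LHP. It reached 4 in the LHP tumors alone and passed the filter through them, so its call, counted above, was bound to be a difference from LHP and is no support for one. Cdh6 and Cdh13 also passed the filter only with the LHP tumors, where they were highest, counted in. Their calls relative to LHP are likewise no support for a difference. Cdh9 was at 2.69 to 5.04 in S7HP and at 0 to 0.29 in LHP (adjusted p = 0.0372). It passed the filter only through tumors outside LHP, so its calls relative to LHP are no support either. That Cdh9 call was lost with 16 in place of 1 added to the unlogged value (adjusted p = 0.201), with only the 6 libraries compared, and on leaving out any LHP tumor or S7HP tumor 9 or 11 (up to 0.124). Relative to LHP, S7HP+Snail had 1 of the 8 risen (Cdh9) and 2 fallen (Cdh6 and Cdh10), against 3.35% and 3.87% of all genes. The Cdh9 and Cdh10 calls were lost in 6 and 8 of 15 alternatives. The filter at a log2 value of 6 removed both genes and gave no value for them. In S7HP+Snail relative to S7HP, 0 of the 8 passed (limma), where 1.01% of all genes rose and 1.29% fell. At an unadjusted p under 0.05 (limma), 2 were higher and 1 lower, with the share of all genes not computed. VE-cadherin, Cdh5, which joins endothelial cells, was 1 of the 2, at 8.43 to 8.98 in S7HP+Snail against 6.77 to 8.01 in S7HP (adjusted p = 0.0903). The summed log2 level of 14 endothelial markers, Cdh5 among them, ran from 12.54 to 13.14 in S7HP+Snail and from 12.09 to 12.97 in S7HP. Of these 14 markers, 12 had a difference above 0 in S7HP+Snail relative to S7HP. Without overlap of the groups 6 were higher, as were 9.53% of all genes. At an unadjusted p under 0.05 (limma), 7 were higher and 0 lower, and the share of all genes at that threshold was not computed. The adjusted test passed 1 of the 14, where 1.01% of all genes rose. The marker that passed was Plvap, a protein of endothelial pores, at 9.53 on average in S7HP+Snail against 8.08 in S7HP (log2 difference 1.45 ± 0.30, SE; limma, Benjamini-Hochberg adjusted p = 0.0382). The part of endothelial cells in the Cdh5 values was not tested.

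Some genes of nectin adhesion and vinculin passed in S7HP relative to LHP, in both directions, while β-catenin and α-catenin did not pass. Of 15 catenin and nectin adhesion genes 13 passed the filter, and 2 rose and 2 fell. Of all genes, 9.47% rose and 9.54% fell (19.0% in all). With only 13 genes, that count is not read as a result about the list. Nectin 2, listed as Pvrl2, rose by 1.08 ± 0.28 and nectin 1, listed as Pvrl1, fell by 1.36 ± 0.33 (SE; limma, Benjamini-Hochberg adjusted p = 0.0249 and 0.0192). Afadin, the actin linker of nectins, listed as Mllt4, rose by 0.80 ± 0.25 and vinculin, Vcl, fell by 1.01 ± 0.28 (SE; adjusted p = 0.0494 and 0.0320). The Mllt4 call was lost in 9 of 16 alternatives, among them TMM factors, no filter on low values and eBayes without trend and robust, and the Vcl call in 7 of 16, eBayes without trend and robust among them. All 4 calls were lost on leaving out at least 1 LHP tumor and at least 1 S7HP tumor, with adjusted p up to 0.0892 for Pvrl2, 0.0753 for Pvrl1, 0.155 for Mllt4 and 0.115 for Vcl. Pvrl1 and Vcl also fell in S7HP+Snail relative to LHP (adjusted p = 0.0199 and 0.0267), calls likewise lost on leaving out single tumors (up to 0.0782 and 0.0990). β-catenin, Ctnnb1, averaged 14.63 in S7HP+Snail, 14.85 in S7HP and 14.39 in LHP, and α-catenin, Ctnna1, averaged 11.50, 11.71 and 11.62 in the same order, with no difference passing. In S7HP+Snail relative to S7HP 0 of 13 passed (limma), where 2.30% of all genes did. At an unadjusted p under 0.05 (limma), 3 were lower, with the share of all genes not computed. Among them was Plekha7, a partner of p120-catenin, at 2.61 to 6.25 against 7.16 to 8.02 (limma, Benjamini-Hochberg adjusted p = 0.0704).

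Of 6 keratins 4 passed the filter, and 0 of 4 passed the test in any comparison (limma). At an unadjusted p under 0.05 (limma), 1 was higher in S7HP relative to LHP and 2 were lower in S7HP+Snail relative to S7HP. The share of all genes at that threshold was not computed. Keratin 18, Krt18, the partner of keratin 8 in hepatocytes, was at 12.27, 10.31 and 12.42 in S7HP+Snail tumors 13, 14 and 15, against 13.73, 13.92 and 14.00 in S7HP tumors 9, 11 and 12 (adjusted p = 0.0752). Keratin 8, Krt8, was at 12.35, 9.45 and 12.21 in the same S7HP+Snail tumors, against 12.48 to 12.85 in S7HP. Tumor 14 was the lowest of the 9 for both.

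Repressors of Cdh1 were lower in S7HP alongside the higher Cdh1. Of 8 such factors, 4 fell in S7HP relative to LHP, where 9.54% of all genes fell. The log2 differences were -4.22 for Snai1, -2.17 for Zeb2, -1.89 for Tcf4 and -5.20 for Twist1 (limma, Benjamini-Hochberg adjusted p = 0.000613, 0.00465, 0.0170 and 0.0187). In S7HP+Snail relative to S7HP, 1 of the 8, Tcf4, rose, where 1.01% of all genes rose. Its values were 13.08, 14.81 and 12.93 in tumors 13, 14 and 15, against 10.47 to 11.13 in S7HP (limma, Benjamini-Hochberg adjusted p = 0.0178). Snai1 and Zeb2 were higher without overlap, by 1.63 ± 0.43 and 1.46 ± 0.36 (SE), but did not pass (adjusted p = 0.0850 and 0.0766). Of the 8 differences 7 lay above 0. The exception was Snai2, at -1.79 ± 0.67 (SE), which did not pass (adjusted p = 0.203). The calls of Tcf4 and Twist1 in S7HP were lost on leaving out single tumors (adjusted p up to 0.0620 and 0.0699). That of Tcf4 in S7HP+Snail was lost without S7HP tumor 11 or 12 and with only the 6 libraries compared (up to 0.0831). In S7HP+Snail relative to LHP, 1 of the 8, Snai1, fell, where 3.87% of all genes fell. Its log2 difference was -2.59 ± 0.43 (SE, limma, Benjamini-Hochberg adjusted p = 0.00931). Tumor 13, with the highest Cdh1 of its group, had the highest Snai1 of its group by a small margin, 8.53 against 7.31 and 8.47, and its Zeb2 was at 9.92, against 10.89 and 9.32. The part of stellate cells, fibroblasts and endothelial cells in the values of these factors was not tested. Whether any of these factors acts on Cdh1 in these tumors was not tested either.

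The genes most like each of 3 members over the 9 tumors were named by Pearson's r, as a description over tumors that fall into groups. Nearest to Cdh1 were Cdhr2, a protocadherin of microvilli (r = 0.986), the receptor subunit Il22ra1 (0.983), Arhgap27 (0.972), Myom3 (0.964) and Fgd4 (0.962), of which Cdhr2 and Myom3 averaged under 2 in S7HP+Snail and LHP. Of the members, Dsg2 ranked 96th of 14215 genes for likeness to Cdh1 (r = 0.887), Pkp3 303rd, Dsp 481st and Pkp2 1642nd (r = 0.601). Nearest to Pkp2 were the lipid transporter Abca3 (r = 0.966), Npdc1 (0.965), D330041H03Rik (0.961), Samd10 (0.954) and Lekr1 (0.951). Nearest to Cdh2 were Mthfsd (r = 0.961), dystonin, Dst (0.952), Rgs16 (0.934), Nae1 (0.925) and Hyal1 (0.922).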

How the data were processed

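RNA of 9 liver tumors was sequenced from QuantSeq 3′ libraries, per the labels' protocols. Bowtie2, edgeR and mm10 are named in the submitters' processing notes, with no roles or versions. The authors deposited log2 values. The numbers themselves look like quantile-normalized counts with 1 added before the log, since all libraries have nearly equal unlogged totals, and library depth is therefore unknown. The 14215 genes that reached 4 on the log2 scale in 3 or more libraries entered 1 limma fit of all 9 (limma 3.58.1, R 4.3.3, eBayes with trend and robust, 6 residual degrees of freedom). Tests were two-sided with Benjamini-Hochberg adjustment over all kept genes, and a gene passed at an adjusted p under 0.05. The procedure was tested on simulated data. Alternatives changed scaling (equal medians, or TMM factors from the published algorithm), filter, pseudocount, variance model and libraries. Coordinates are from GENCODE mouse release M21 (GRCm38), and promoters from RefSeq. Members and lists were chosen with earlier results of these data known. Named genes are the 10 members, called genes of the lists (up to 6 per list), Snai1, Smad7 and the 5 genes most like Cdh1, Cdh2 and Pkp2. Genes named outside this rule were chosen after their values were seen. Python 3.11.15 with matplotlib 3.10.9 drew the figures.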

Additional observations from a re-analysis of the deposited data

How the results depend on the processing

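No paired analysis was possible because the groups share no replicate numbers. In 16 alternatives per comparison, the lower Pkp2 in S7HP+Snail passed against both other groups every time. Leaving out 1 library leaves a group of 2, whose spread is taken from the pooled fit. It moved the genes called higher and lower to 746 to 1531 and 702 to 1632 for S7HP against LHP (1346 and 1356 with all libraries), to 36 to 214 and 27 to 237 for S7HP+Snail against S7HP (143 and 184), and to 150 to 493 and 138 to 556 for S7HP+Snail against LHP (476 and 550). Members called ran from 0 to 4, 1 to 3 and 1 to 2 in the same order. Fitting only the 6 libraries compared gave 50 higher and 70 lower for S7HP+Snail against S7HP and 303 higher for S7HP+Snail against LHP. The cause was not tested. Among members, 11 differences changed sign, none of them past the test. For S7HP+Snail against S7HP these were Dsp, at 0.10, 0.37 and 0.23 without S7HP tumor 12 and S7HP+Snail tumors 14 and 15 (lowest and highest on leaving out 1 library, -0.82 and 0.37), and Dsc2, at -0.41 without S7HP+Snail tumor 13 (highest 1.17). For S7HP+Snail against LHP they were Cdh1 (-0.47), Pkp3 (-0.65), Dsp (-0.01) and Dsc2 (-0.03) without S7HP+Snail tumor 13, Pkp3 (-0.03) without LHP tumor 6, and Jup (0.37 and 0.08) without LHP tumor 3 and S7HP+Snail tumor 14. The other ends of these ranges were 1.34 for Cdh1, 0.51 for Pkp3, 1.18 for Dsp, 1.56 for Dsc2 and -0.22 for Jup. Depth is unknown, which limits low genes such as Cdh11 most.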
